A study of Mus musculus with 6 samples.

Results

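BTB zinc finger genes encode nuclear proteins with an N-terminal BTB (POZ) domain, which pairs the protein with itself and docks corepressors, and a set of C-terminal C2H2 zinc fingers, which reads DNA. Many members silence transcription through the NCoR and BCOR corepressors and histone deacetylases, and some bring the CUL3 ubiquitin ligase to their sites. Several are known as regulators of immune lineages, and Bcl6 is known in macrophages as a brake on inflammatory genes.

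The members examined here were the rows of the gene count table that GENCODE release M21 lists as protein-coding with a name of Zbtb and a number, plus Bcl6. They were 42 of the 55335 genes in the table, on 15 chromosomes, with 7 on chromosome 4 and 5 on chromosome 2. The antisense gene Zbtb11os1 was the only other match to the name and was left out as non-coding. The cells were bone marrow-derived macrophages (BMDMs) of wild-type C57BL/6 mice, grown in medium with L929-conditioned supernatant, and the groups were 3 libraries of cells given PBS and 3 of cells given lipopolysaccharide (LPS), a bacterial cell wall component sensed by TLR4, all taken at 1 h. Total RNA was sequenced, and the labels number the libraries of each group 1 to 3 and call these numbers batches, without saying whether they came from separate mice or cultures. P-values therefore measure the spread between these libraries, which may be technical.

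Library totals lay between 37787611 and 41516330 counts, and the lowest correlation of log2 values within a group was 0.994 against a highest value of 0.926 between groups. Values are given as raw counts or as normalized CPM, which divides counts by the library total and by edgeR's TMM factor. These factors were 1.15 in each PBS library and 0.864 to 0.872 in the LPS libraries, so they enter every fold change. The contrast of LPS against PBS was tested by edgeR's quasi-likelihood method over 15687 genes with enough counts, with Benjamini-Hochberg adjustment over all of them. A gene is said to have risen or fallen at an adjusted p under 0.05, and to have passed both criteria when its log2 fold change was also above 1 in size. Tnf, the check of the treatment, rose by a log2 fold change of 6.83. The 7 macrophage markers Adgre1, Csf1r, Cd68, Itgam, Lyz2, Mertk and Fcgr1 were above 3 counts in every library and summed to 29548 to 30823 CPM in PBS and 32289 to 32638 CPM in LPS libraries. Most of this came from Lyz2, at a mean of 23272 CPM in PBS and 24224 CPM in LPS. Fcgr1 fell by 0.48 on the log2 scale and Mertk did not pass the test, while the others rose by 0.06 to 0.35. Markers of other cells were present at lower levels, and none was at 0 in all libraries. In TMM-scaled CPM, the neutrophil list summed to 33.6 to 35.8 CPM in PBS and 44.3 to 46.2 CPM in LPS, with Ly6g at 0 to 3 counts but S100a9 at 805 to 982 and S100a8 at 479 to 575. The T cell list summed to 135 to 146 and 204 to 230 CPM, nearly all from Cd28 at 6075 to 7795 counts, while Cd3e had 2 to 5. The fibroblast list summed to 13.5 to 14.6 and 15.2 to 17.6 CPM and the B cell list to 2.88 to 3.17 and 2.88 to 3.64 CPM. The part of such cells in the results was not tested. These are bulk samples, in which fewer cells of a type and less RNA per cell cannot be told apart.

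Of the 42 members, 39 had enough counts to be tested. After 1 h of LPS, 14 rose and 22 fell, and 3 did not pass the test. Over all tested genes, 32.9% rose and 34.9% fell. Past both criteria were 3 members that rose (7.69% of those tested, against 10.5% of all tested genes) and 8 that fell (20.5%, against 10.4%). The difference in rises amounts to about 1 gene and was gone with library size alone, where 3 of 39 members and 1213 of 15687 genes rose past both criteria. Tested members had a median log2 fold change of -0.37, beside -0.01 over all tested genes. In 13 members every LPS library lay above every PBS library and in 22 every LPS library lay below, with overlap in the other 4, while the shares over all tested genes were 33.9% above and 36.6% below.

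The direction of small changes depended on scaling. With library size alone in place of TMM, the median log2 fold change of all tested genes moved by -0.40, and with upper quartile scaling by -0.14. With library size alone, 10 members rose and 25 fell, so that rises made up 28.6% of the members that passed the test in place of 38.9%, and 14 members fell past both criteria in place of 8. Over all tested genes the share of rises among those that passed the test went from 48.6% to 18.5%, and among those past both criteria from 50.4% to 29.0%, with upper quartile scaling giving 33.8% and 42.6%. The 14 risers kept a positive log2 fold change under each scaling, but Zbtb16, Zbtb17, Zbtb20 and Zbtb43 no longer passed the test with library size alone.

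**Figure D1:**
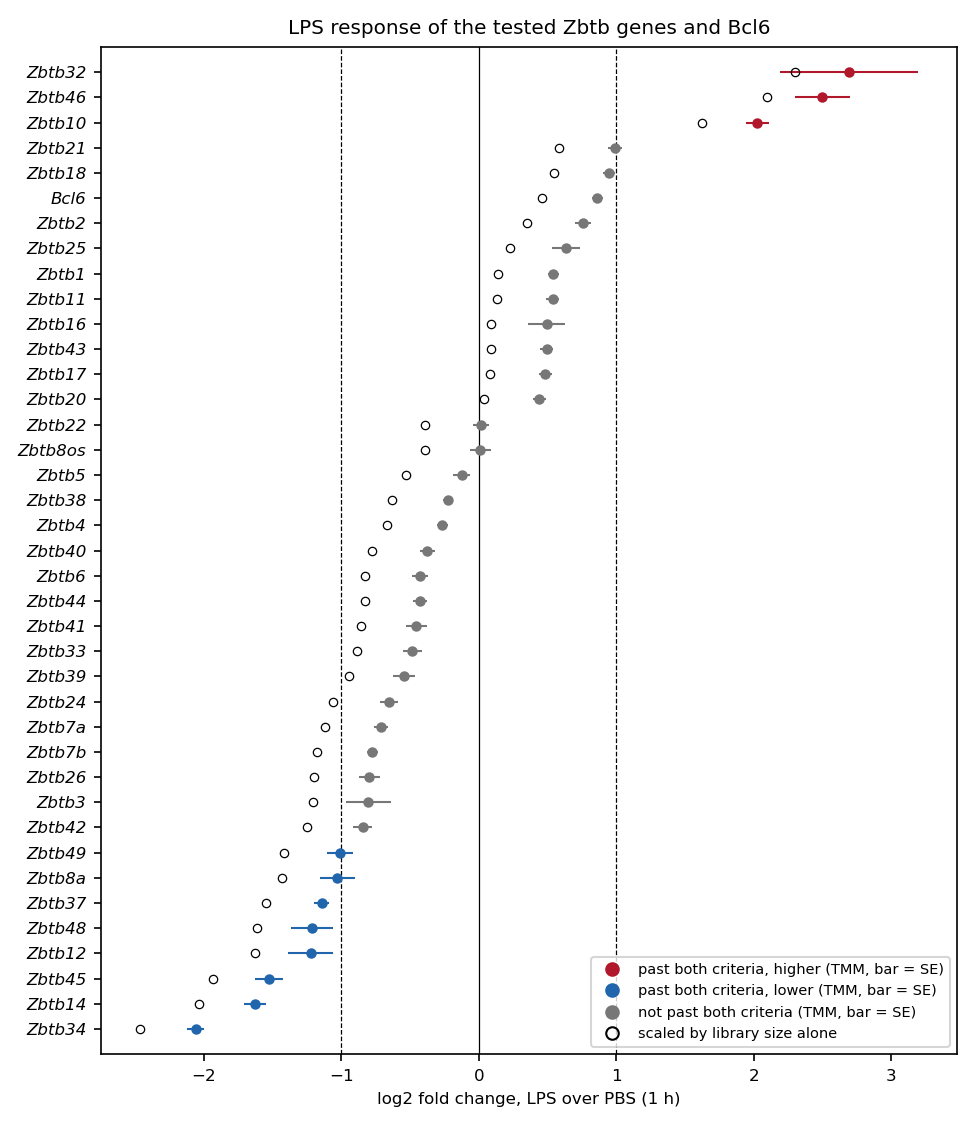
Log2 fold change of LPS over PBS for the 39 tested members, ordered by value, with filled points and bars for the estimate and its standard error under TMM scaling and open points for scaling by library size alone. Dashed lines mark log2 fold changes of -1 and 1, with 3 members above and 8 below past both criteria, and the open points lie to the left of the filled ones, which takes Zbtb8os and Zbtb22 from just above 0 to below it.

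Grouped by known role, the members gave these counts. Of the 11 known as lineage or immune regulators, 9 rose, 2 of these past both criteria, and 2 fell, with a median log2 fold change of 0.54. With library size alone, 6 rose, as Zbtb16, Zbtb17 and Zbtb20 no longer passed the test. Zbtb1, whose value is this median, had 0.14 there. The shares over all tested genes were, as above, 32.9% rising and 34.9% falling, and 10.5% and 10.4% past both criteria. All 3 methyl-CpG binders fell, none past both criteria. Of the 4 linked to telomere or genome maintenance, 1 rose and 3 fell. Of the remaining 24, 21 were tested, of which 4 rose, 14 fell and 3 did not pass the test. These groupings rest on background knowledge, were made with earlier results of these data known, and were not tested against each other. Some members could be placed otherwise: Zbtb18, best known from neurons, counts as a lineage regulator. Zbtb24, mutated in a human immunodeficiency, counts under maintenance.

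Zbtb10, whose product is known to bind variant telomere repeats, was the most abundant of the 3 members that rose past both criteria. It had 150, 162 and 171 counts in the PBS libraries and 481, 452 and 489 in the LPS libraries. The groups did not overlap, and the normalized level went from 3.48 ± 0.29 to 14.2 ± 0.29 CPM (mean ± SD, n = 3 libraries each). The log2 fold change was 2.03 with a standard error of 0.085 (adjusted p = 3.34e-13, edgeR), a 4.08-fold rise. It passed both criteria in each of the 15 fits tried.

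Zbtb46, a factor known as a mark of classical dendritic cells, had 19, 18 and 18 counts in PBS and 72, 67 and 87 in LPS. Each LPS library was above each PBS library, with a log2 fold change of 2.50 and a standard error of 0.20 (adjusted p = 3.41e-09, edgeR), 5.66-fold. Its level stayed low, at 0.0465 RPKM (CPM per kilobase of exons) in PBS and 0.265 RPKM in LPS. Of the 6 dendritic cell markers on the list, Flt3, Xcr1 and Siglech rose past both criteria as well, with log2 fold changes of 1.63, 3.92 and 1.07. Xcr1 had only 2, 1 and 2 counts in PBS, under 3 in each library, and 27, 17 and 15 in LPS. Flt3 had 43, 35 and 47 counts in PBS and 108, 77 and 94 in LPS, and Siglech 86, 91 and 118 and 149, 153 and 146. Ccr7 rose by 0.78, and Clec9a (0.38) and Itgax (0.05) did not pass the test. None of the 6 was at 0 in all libraries, and their sum was 89.6 to 99.3 CPM in PBS and 101.5 to 104.7 CPM in LPS, most of it from Itgax at 88.8 and 92.0 CPM. Their part in the Zbtb46 result was not tested.

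Zbtb32, a repressor known from activated lymphocytes, had the highest log2 fold change of any member on the fewest counts. It had 7, 3 and 1 counts in PBS and 11, 25 and 17 in LPS, and PBS replicates 2 and 3 were at or under the floor of 3 counts. The groups did not overlap, but their highest and lowest libraries lay close together. The log2 fold change was 2.69 with a standard error of 0.50 (adjusted p = 0.000126, edgeR). Without PBS replicate 1 it was 3.50, and it was not tested under a filter of 10 counts in every library.

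The start regions of Zbtb32 and Zbtb46 are printed because these members had the highest log2 fold changes with a window in the RefSeq table (GRCm38.p6). Each window runs 5′ to 3′ from 250 bases before to 50 after the most upstream start site listed there. Zbtb32 lies at chr7:30598860-30599159 and Zbtb46 at chr2:181424339-181424638, both on the minus strand. Capitals mark matches to the 5 motifs described further on, here an AP-1 match that begins 61 bases before the Zbtb46 start site.
Zbtb32: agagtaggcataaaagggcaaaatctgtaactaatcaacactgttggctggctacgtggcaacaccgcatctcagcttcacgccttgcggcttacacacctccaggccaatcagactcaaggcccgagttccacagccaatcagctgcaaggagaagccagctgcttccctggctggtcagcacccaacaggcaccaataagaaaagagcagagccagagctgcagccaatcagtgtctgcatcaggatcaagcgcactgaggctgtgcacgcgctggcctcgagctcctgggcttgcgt
Zbtb46: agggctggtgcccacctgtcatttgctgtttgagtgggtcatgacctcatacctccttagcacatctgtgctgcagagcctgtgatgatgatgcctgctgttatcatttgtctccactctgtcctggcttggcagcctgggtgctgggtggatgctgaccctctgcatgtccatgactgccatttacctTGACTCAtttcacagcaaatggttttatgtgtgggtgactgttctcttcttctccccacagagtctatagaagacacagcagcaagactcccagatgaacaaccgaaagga
Zbtb32 holds none of the motifs in this window. The Zbtb46 start site in RefSeq lies 35038 bases inside the gene as GENCODE draws it, so the window covers only an internal start.

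Zbtb34 fell more than any other member. It had 1244, 1188 and 1209 counts in PBS and 218, 212 and 200 in LPS, or 26.2 ± 0.085 and 6.29 ± 0.36 CPM. The groups were far apart and the PBS libraries almost equal. The log2 fold change was -2.06 with a standard error of 0.064 (adjusted p = 3.81e-15, edgeR), a 4.17-fold fall. Zbtb14, a factor known to bind GC-rich DNA, had 863, 736 and 816 counts in PBS and 196, 164 and 203 in LPS, a 3.09-fold fall (log2 fold change -1.63, standard error 0.081). Zbtb45 had 452, 492 and 524 counts in PBS and 133, 118 and 117 in LPS, a 2.88-fold fall. In each of these genes the highest LPS library was far below the lowest PBS library.

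The start regions of Zbtb34 (chr2:33431275-33431574, minus strand) and Zbtb14 (chr17:69382925-69383224, plus strand) are printed as those of the lowest members, from the same RefSeq table and in the same orientation.
Zbtb34: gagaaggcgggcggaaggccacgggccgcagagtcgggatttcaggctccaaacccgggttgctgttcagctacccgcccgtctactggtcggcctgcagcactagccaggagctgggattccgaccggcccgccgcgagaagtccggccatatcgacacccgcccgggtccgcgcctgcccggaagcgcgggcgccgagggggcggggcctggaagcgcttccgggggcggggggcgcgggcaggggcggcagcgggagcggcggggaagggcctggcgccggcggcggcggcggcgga
Zbtb14: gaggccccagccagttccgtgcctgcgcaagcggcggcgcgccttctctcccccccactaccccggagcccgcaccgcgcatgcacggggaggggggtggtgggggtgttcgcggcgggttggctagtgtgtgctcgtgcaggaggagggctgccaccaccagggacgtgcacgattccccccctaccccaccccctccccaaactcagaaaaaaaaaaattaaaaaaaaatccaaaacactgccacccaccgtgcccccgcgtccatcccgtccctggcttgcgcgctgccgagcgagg
Neither window holds a match to any of the 5 motifs. Both are rich in G and C, at 76.7% for Zbtb34 and 66.7% for Zbtb14.

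Zbtb37 had 1288, 1203 and 1266 counts in PBS and 418, 394 and 415 in LPS, with a log2 fold change of -1.14 and a standard error of 0.054. Zbtb12 had 111, 117 and 125 counts in PBS and 39, 40 and 30 in LPS, a 2.33-fold fall. It lies on chromosome 17, 302513 bases from Tnf, which rose. Zbtb48, whose product (TZAP) is known to bind telomeres and trim them, had 248, 292 and 214 counts in PBS and 62, 79 and 94 in LPS, a log2 fold change of -1.21 with a standard error of 0.15. These 3 genes passed both criteria in each of the 15 fits, as did Zbtb34, Zbtb14 and Zbtb45.

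The remaining falls past both criteria lay at the threshold. Zbtb8a had 215, 224 and 178 counts in PBS and 75, 72 and 71 in LPS, a log2 fold change of -1.03 with a standard error of 0.13, which was -0.94 without PBS replicate 2. Zbtb49 had 386, 346 and 387 counts in PBS and 129, 124 and 148 in LPS, a log2 fold change of -1.01 with a standard error of 0.094. It was -0.98 without PBS replicate 3, -0.98 without LPS replicate 1 and -0.97 without LPS replicate 2. Zbtb21 stood at the other edge, with 1875, 1577 and 1775 counts in PBS and 2394, 2459 and 2639 in LPS and a log2 fold change of 0.99, just under the threshold. It was 1.02 without PBS replicate 1, 1.01 without PBS replicate 3 and 1.02 without LPS replicate 1. With DESeq2's size factors or its Wald test Zbtb49 had -0.99, no longer past both criteria, and Zbtb21 had 1.01, past them. In all 3 genes the groups did not overlap, and it is the size criterion that these settings decided.

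**Figure D2:**
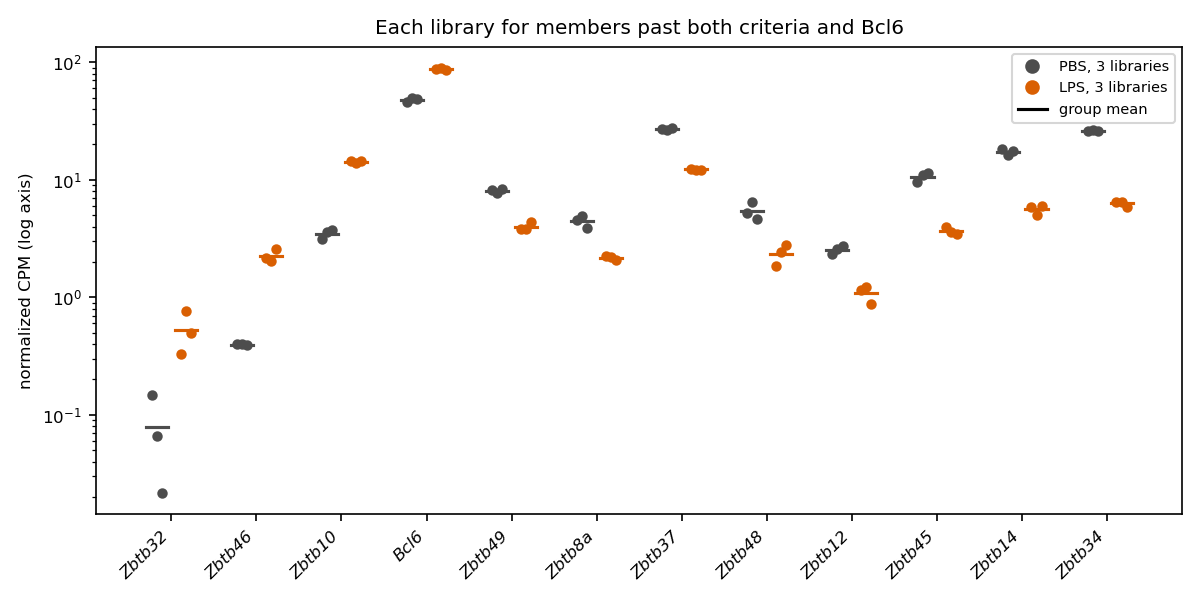
Normalized CPM on a log axis in each of the 6 libraries for the 11 members past both criteria and Bcl6, with PBS in grey, LPS in orange and a line at each group mean. The groups do not overlap for any gene shown, and Zbtb32 has the widest spread and the lowest values.

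Bcl6, the repressor that gives germinal centre B cells and follicular helper T cells their identity and restrains NF-kB target genes in macrophages, had 2191, 2228 and 2248 counts in PBS and 2936, 2902 and 2912 in LPS. Both groups were tight and well apart, at 48.0 ± 1.8 and 87.3 ± 1.7 CPM. The log2 fold change was 0.86 with a standard error of 0.038 (adjusted p = 7.59e-13, edgeR), a 1.82-fold rise that stays short of the size criterion in all 15 fits and was 0.46 with library size alone. Its start region (chr16:23988803-23989102, minus strand, same table and orientation) is printed because it holds matches to the STAT/BCL6 motif, 118 bases before the start site, and to the E-box, 60 bases before it.
Bcl6: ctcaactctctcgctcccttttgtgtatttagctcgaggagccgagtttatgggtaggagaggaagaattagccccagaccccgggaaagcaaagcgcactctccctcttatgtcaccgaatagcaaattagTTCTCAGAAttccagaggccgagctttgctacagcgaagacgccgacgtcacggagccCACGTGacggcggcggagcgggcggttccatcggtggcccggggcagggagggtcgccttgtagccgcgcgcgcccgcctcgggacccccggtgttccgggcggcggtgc
The capitals mark these matches in the order given.

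Zbtb7a and Zbtb7b were the lineage regulators that fell. Zbtb7b (ThPOK), which fixes the CD4 fate in T cells, had 3534, 3677 and 3536 counts in PBS and 1493, 1510 and 1535 in LPS, a log2 fold change of -0.77 with a standard error of 0.042. Zbtb7a (LRF), known from erythroid cells and B cells, had 3587, 3718 and 3326 counts in PBS and 1593, 1587 and 1510 in LPS, a log2 fold change of -0.71 with a standard error of 0.049. Neither passed both criteria, except with library size alone, where the values were -1.18 and -1.11. Of the 6 T cell markers on the list, Cd28 rose by 0.62, Lck did not pass the test and the other 4 had too few counts for it.

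Zbtb46 and Zbtb32 aside, the lineage regulators that rose did so by less than 2-fold. Zbtb18, a repressor best known from neurons, had 1823, 1701 and 1919 counts in PBS and 2537, 2504 and 2542 in LPS, a log2 fold change of 0.95. Zbtb17 (MIZ-1), the partner through which MYC represses genes, had 0.48, and Zbtb20, a repressor known from B cells and liver, 0.44. Zbtb16 (PLZF), the factor of innate-like T cells, was the only riser whose groups overlapped in normalized values. It had 186, 258 and 224 counts in PBS and 186, 250 and 244 in LPS, a log2 fold change of 0.49 with a standard error of 0.13 (adjusted p = 0.00332, edgeR). With library size alone its log2 fold change was 0.09 and Zbtb20's 0.04.

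Zbtb33 (Kaiso), Zbtb4 and Zbtb38, which bind methylated CpG sites, fell together but little. Zbtb33 had 1438, 1205 and 1431 counts in PBS and 669, 650 and 785 in LPS, a log2 fold change of -0.48. Zbtb4 had 2159, 2147 and 2150 counts in PBS and 1314, 1292 and 1273 in LPS, and its log2 fold change was -0.26. Zbtb38 had 3870, 3558 and 3730 counts in PBS and 2312, 2199 and 2369 in LPS, with -0.23. The LPS libraries of each gene lay below its PBS libraries. Zbtb24, mutated in a human immunodeficiency with unstable centromeres, fell by 0.65 on the log2 scale, from 799, 717 and 765 to 344, 357 and 344 counts. Zbtb40, the remaining member of the maintenance group, had -0.37.

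Among members without a role named here, Zbtb2 rose by 0.76 on the log2 scale, from 757, 631 and 679 to 818, 825 and 879 counts, and Zbtb11 by 0.54, from 1221, 1103 and 1230 to 1265, 1230 and 1224 counts. Zbtb11 shares 489 exonic bases with the antisense gene Zbtb11os1, which had 77 to 141 counts. It also shares 238 with Pcnp on the other strand, which had 1529 to 2071 counts, more than Zbtb11 in every library. A further 127 are shared on the same strand with Gm28037, which had 0 counts in every library. Zbtb42 fell from 901, 856 and 774 to 326, 332 and 360 counts, a log2 fold change of -0.84. Zbtb3 fell from 127, 98 and 105 to 45, 52 and 39 counts, with -0.80. Zbtb39, Zbtb41 and Zbtb44 fell by less, with log2 fold changes of -0.54, -0.45 and -0.43. In each of these 7 genes the normalized values of the groups did not overlap, and none passed both criteria under TMM scaling.

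The 3 tested members that did not pass the test were Zbtb5, Zbtb22 and Zbtb8os. Zbtb5 had 926, 820 and 883 counts in PBS and 547, 561 and 635 in LPS, with a log2 fold change of -0.12 (adjusted p = 0.09, edgeR). Zbtb22 had 1596, 1720 and 1503 counts in PBS and 1217, 1199 and 1101 in LPS, with 0.02 (adjusted p = 0.825, edgeR), which was -0.39 with library size alone. The normalized values of the groups overlapped in these genes. Zbtb8os, nearest to no change, had 465, 439 and 456 counts in PBS and 349, 321 and 320 in LPS, which the TMM factors brought to 9.79 ± 0.085 and 9.88 ± 0.50 CPM. Its log2 fold change was 0.01 (adjusted p = 0.884, edgeR), and -0.39 with library size alone. Its name means only that it lies on the strand opposite Zbtb8: its product, archease, is a cofactor of the tRNA ligase. A search for the C2H2 pattern found no match in its coding sequence. In the other 41 members the coding sequences held 1 to 14 matches, with a median of 4. The pattern was 2 cysteines separated by 2 or 4 residues, then 12 residues and 2 histidines separated by 3 to 5, so fingers with other spacing are missed. Bcl6 had 6 matches, Zbtb34 3, Zbtb32 3, Zbtb46 2 and Zbtb10 2. The median was 4.5 in the 14 that rose and 4 in the 22 that fell. Leaving out Zbtb8os, the members had a median log2 fold change of -0.40.

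The 3 members not tested had almost no counts. Zbtb8b had 1 count, in PBS replicate 3, and Zbtb9 had 1 count in PBS replicate 2 and 1 in LPS replicate 3. Zbtb7c had 3, 1 and 6 counts in PBS and 0, 1 and 1 in LPS. A count of 0 allows up to 3 counts, or 0.0630 to 0.0919 CPM in these libraries, with counting error only. Zbtb9 shares 2938 exonic bases with Ggnbp1 on the same strand, and reads in shared exons may not have been assigned to either gene.

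Levels between genes are compared per length. In PBS libraries the highest member was Zbtb7b at 13.8 ± 0.65 RPKM (SD, n = 3), followed by Zbtb22 at 12.99 ± 1.1 and Zbtb7a at 11.2 ± 0.77. Zbtb7b and Zbtb22 differed by less than their spread. Zbtb17 at 7.96 ± 0.33 and Bcl6 at 7.17 ± 0.26 came next, an order that turned with the length of the longest transcript, which gave 8.87 and 12.2. In LPS libraries the order was Zbtb22 (13.1 ± 0.90), Bcl6 (13.03 ± 0.25), Zbtb18 (12.3 ± 0.17), Zbtb21 (11.8 ± 0.50) and Zbtb17 (11.1 ± 0.33). Zbtb22 could not be ordered against Bcl6 or Zbtb18 within its spread. It also shares 149 exonic bases on the same strand with Tapbp, which had 17298 to 22386 counts. How reads there were assigned is not given. Zbtb7b went from rank 1 to rank 6, at 8.10 ± 0.16 RPKM, while Zbtb34 went from rank 15 to rank 29 of the 39. The members together summed to 1003 to 1016 CPM in PBS and 1008 to 1017 CPM in LPS, ranges that overlapped, whereas without TMM factors they were 0.115% to 0.117% of all counts in PBS and 0.0872% to 0.0886% in LPS.

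**Figure D3:**
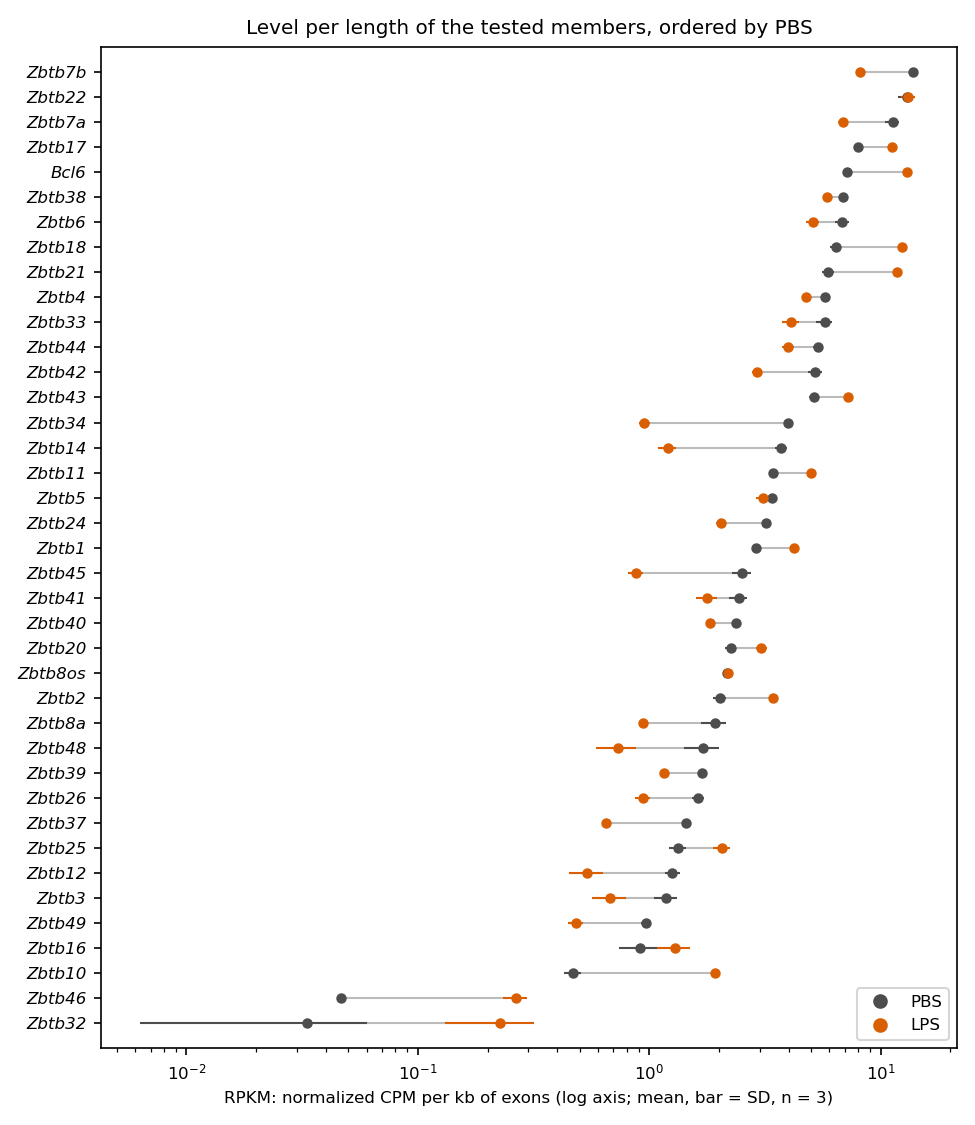
Level of each tested member in RPKM (normalized CPM per kilobase of annotated exons, log axis) in PBS and LPS, as mean and SD over 3 libraries, ordered by the PBS level. Zbtb7b, Zbtb22 and Zbtb7a lead in PBS, while Zbtb46 and Zbtb32 lie lowest in both groups.

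Some members are neighbours. Zbtb25 and Zbtb1, a factor needed for lymphoid development, lie head to head on chromosome 12 with start sites 664 bases apart, and both rose, by 0.63 and 0.54 on the log2 scale. Zbtb1 had 1649, 1577 and 1652 counts in PBS and 1689, 1692 and 1750 in LPS. Zbtb25 had 213, 171 and 193 counts in PBS and 197, 225 and 224 in LPS. In both genes the normalized values of the groups did not overlap, whereas the raw counts of Zbtb25 did. With library size alone the log2 fold changes were 0.23 for Zbtb25 and 0.14 for Zbtb1. Their start regions are printed as those of a pair that moved together, with Zbtb25 at chr12:76369511-76369810 on the minus strand and Zbtb1 at chr12:76370270-76370569 on the plus strand.
Zbtb25: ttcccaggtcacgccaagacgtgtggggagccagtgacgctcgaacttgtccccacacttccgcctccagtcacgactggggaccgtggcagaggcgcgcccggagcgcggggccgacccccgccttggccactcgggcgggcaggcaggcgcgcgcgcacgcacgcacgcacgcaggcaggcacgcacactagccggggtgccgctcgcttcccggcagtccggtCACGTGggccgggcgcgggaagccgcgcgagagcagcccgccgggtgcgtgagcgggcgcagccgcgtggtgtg
Zbtb1: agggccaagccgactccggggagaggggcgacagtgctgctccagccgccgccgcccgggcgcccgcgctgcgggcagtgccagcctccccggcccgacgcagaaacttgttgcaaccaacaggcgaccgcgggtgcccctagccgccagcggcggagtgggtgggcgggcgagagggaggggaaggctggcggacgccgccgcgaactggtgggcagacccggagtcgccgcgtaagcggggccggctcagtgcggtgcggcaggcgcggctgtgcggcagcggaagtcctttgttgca
The capitals in Zbtb25 mark an E-box that begins 24 bases before its start site, and Zbtb1 has no match.

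Zbtb6 and Zbtb26, on the same strand of chromosome 2, have gene starts 36 bases apart in GENCODE and share 449 exonic bases. Both fell, Zbtb6 by 0.42 from 1610, 1479 and 1731 to 905, 783 and 905 counts and Zbtb26 by 0.80 from 746, 652 and 749 to 276, 293 and 323 counts. Reads in the shared bases may not have been assigned to either gene. Zbtb34 and Zbtb43 lie 18962 bases apart on the same strand and went in opposite directions, as Zbtb43 rose by 0.49. Its counts were 1240, 1265 and 1211 in PBS and 1267, 1192 and 1319 in LPS. Zbtb8a and Zbtb8os overlap by 264 exonic bases on opposite strands, and Zbtb8b lies 47648 bases from Zbtb8a.

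Since the strand setting of the counting is not given in the sources used here, reads from genes on opposite strands may not be separated. Among the members past both criteria, Zbtb37 shares 2942 exonic bases with Serpinc1 on the other strand, Zbtb14 shares 565 with a lincRNA gene and Zbtb12 shares 161 with C2. Serpinc1 had 28 to 52 counts, the lincRNA 0 to 8 and C2 6 to 19, fewer than the member in each library. Zbtb8a shares its 264 bases with Zbtb8os, which had more counts in every library, 320 to 465 against 71 to 224. Zbtb34, Zbtb45, Zbtb48, Zbtb49, Zbtb10, Zbtb32 and Zbtb46 share no exonic base with another gene in GENCODE M21.

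A start region was listed for 37 members. The median GC content of these windows was 65.3%, beside 60.7% in the windows of 10158 tested genes. Of the 37, 31 (83.8%) had a ratio of observed to expected CpG of at least 0.6, beside 71.0% of the tested genes and 36.5% of all 27025 windows. Zbtb46 had the lowest ratio of the printed windows, at 0.052 in a window at an internal start. Zbtb32 had 0.43, whereas Zbtb34 had 0.98 and Bcl6 1.05. The median ratio was 0.969 in the 12 windows of members that rose and 0.808 in the 20 of members that fell. Motifs were searched on both strands: CRE (TGACGTCA), AP-1 (TGANTCA), STAT/BCL6 (TTCNNNGAA), E-box (CACGTG) and the NF-kB motif. CRE was found in 2 of the 37 members and 1.85% of all windows, and AP-1 in 1 and 7.92%. The STAT/BCL6 motif was in 2 members (Bcl6 and Zbtb20) and 8.42% of windows, the E-box in 6 and 7.24%, and NF-kB in 4 (Zbtb4, Zbtb21, Zbtb26 and Zbtb41) and 4.32%. No matches overlapped in the printed windows. The start site of 30 windows lay within 1 kb of the GENCODE gene start. The other 7 lay farther away, among them that of Zbtb20, 371403 bases inside the gene as GENCODE draws it. The motif shares are over all windows, which reach the CpG ratio less often than those of members (36.5% against 83.8%). The CRE and E-box strings themselves contain a CpG, and shares over the tested genes were not computed. A match is a string of letters and not a bound site.

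Other zinc finger genes are given beside the members as a reference. Of 394 protein-coding genes named Zfp and a number, 333 were tested, and 15 (4.50%) rose and 177 (53.2%) fell past both criteria. Their median log2 fold change was -1.08, beside -0.37 for the Zbtb members. The Zfp genes were taken by name alone, whatever their type of finger. They include Zfp131 and Zfp652, BTB zinc finger genes described further on, with log2 fold changes of 2.60 and -0.20. Zfp36, Zfp36l1 and Zfp36l2 are among them as well, with 4.26, 1.70 and -0.20. Over all tested protein-coding genes, 9.09% rose and 7.40% fell past both criteria. These shares are descriptions, and no test of the difference between the sets was made.

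**Figure D4:**
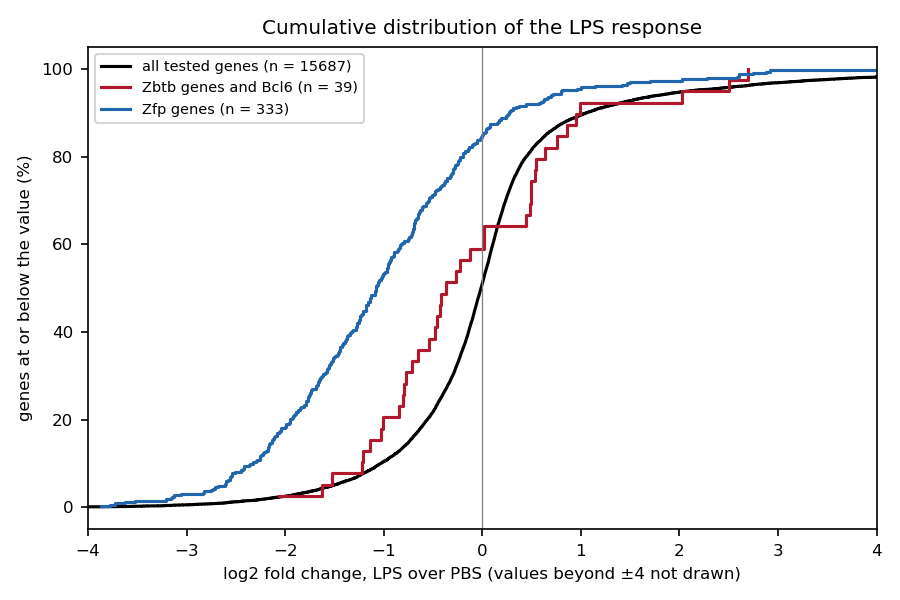
Percent of genes at or below each log2 fold change of LPS over PBS, for all 15687 tested genes, the 39 tested Zbtb genes and Bcl6, and the 333 tested Zfp genes. The Zbtb curve lies mostly between the others below 0 and joins that of all genes near the upper end, with medians of -0.37, -0.01 and -1.08 for Zbtb, all and Zfp genes under TMM scaling and -0.78, -0.42 and -1.48 with library size alone.

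BTB zinc finger genes also stand under other names, and 6 of the 9 on a list of these were tested. Zfp131 had 1197, 1084 and 1296 counts in PBS and 5317, 4936 and 5402 in LPS, a log2 fold change of 2.60 with a standard error of 0.048 (adjusted p = 1.43e-18, edgeR). That is a 6.06-fold rise on counts well above those of Zbtb10, and the gene shares no exonic base with another. Patz1 (MAZR), a regulator of the CD4 and CD8 genes in thymocytes, went the other way, with 1157, 1303 and 1311 counts in PBS and 359, 320 and 337 in LPS, a 2.68-fold fall. Patz1 shares 605 exonic bases with Gm12592 on the other strand and 88 with Gm11944 on the same strand. The other 4 (Hic2, Gzf1, Mynn, Zfp652) fell by log2 fold changes of -0.34 to -0.17 and did not pass both criteria. In Hic2 and Mynn the normalized values of the groups overlapped, and in Gzf1 and Zfp652 they did not. Bcl6b, Hic1 and Zfp651 had at most 13 counts and were not tested.

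The proteins act through partners, which were also counted. Of 17 genes for corepressors, deacetylases and Cul3, 10 rose and 3 fell, but 1 passed both criteria, where 32.9% of all tested genes rose and 10.5% did so past both criteria. With library size alone, the other 9 that rose had a log2 fold change below 0. Bcor, the corepressor first found through its binding to BCL6, had 1373, 1357 and 1266 counts in PBS and 3469, 3581 and 3606 in LPS, a 3.70-fold rise (log2 fold change 1.89, standard error 0.042). Ncor1 rose by 0.18, Hdac5 by 0.38, Cul3 by 0.40 and Hdac1 by 0.35 under TMM scaling, but with library size alone these values were -0.23, -0.02, -0.0031 and -0.05. The 3 that fell were Hdac3 (-0.13), Hdac7 (-0.41) and Gps2 (-0.32). Bcor kept its direction under each scaling, at 1.48 with library size alone.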

How the data were processed

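Total RNA of 6 BMDM libraries was sequenced as paired-end reads by the authors, who aligned them to GRCm38 with HISAT2 2.1.0, used SAMtools 1.17 and featureCounts 2.0.0, and deposited raw counts per gene without normalization. The annotation release, the strand setting and the treatment of reads with several positions are not given in the sources used here. Of 55335 rows, 55154 matched GENCODE M21 when the version suffix was ignored.

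From these counts, edgeR 4.0.16 (R 4.3.3) was run with its default low-count filter, TMM scaling and the quasi-likelihood test on all 6 libraries, with no term for the replicate number. Alternatives were DESeq2 1.42.0 (size factors or Wald test), limma 3.58.1 (voom), library size alone, upper quartile scaling, filters of at least 1 count in any library or 10 in every library, the replicate number as a block, each library left out, and the longest transcript in place of the exon union for levels per length. The pairing comes from the batch numbers in the labels, and across genes the residuals of the PBS and LPS libraries that share a number correlated at -0.0139, 0.0822 and 0.0387. An exact permutation of 3 libraries against 3 reaches no p under 0.1. The floor of 3 counts covers counting error only. Standard errors were derived from the F statistic of the quasi-likelihood test, which includes the spread between libraries.

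The members and the lists were chosen with earlier results of these data known. Named were all members past both criteria, a list of members with a known role, neighbours within 50 kb, the highest and the least changed member, members with almost no counts and listed partner genes past both criteria. Zbtb21, Zbtb18, Zbtb40, Zbtb2, Zbtb3, Zbtb5, Zbtb11, Zbtb22, Zbtb39, Zbtb41, Zbtb42, Zbtb44 and Zbtb7c, and the listed partner genes not past both criteria, were named after their values were seen. In simulated counts of 15687 genes, of which 15225 were tested, edgeR recovered 191 of 200 genes given a log2 change of 2, with 0 false calls. DESeq2 recovered 188, and limma voom recovered 191 with 3 false calls. Only these 200 genes changed in the simulation, in both directions, whereas 10626 genes passed the test in the data. The simulation therefore cannot check the choice of scaling. Start regions came from RefSeq (GRCm38.p6), and finger patterns were counted in coding sequences of GENCODE M21 transcripts. Proteins, other experiments of the study and 2 listed genes are not reported here.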

Additional observations from a re-analysis of the deposited data

How the results depend on the processing

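In 15 fits (edgeR with TMM and 14 alternatives), the counts of members past both criteria were 2 to 4 that rose and 7 to 8 that fell, except for 14 that fell with library size alone. There, 2964 of all tested genes fell past both criteria in place of 1624, and 1027 did so under the filter of 10 counts in every library, which tests 13793 genes. Without each library in turn, 3 to 4 members rose and 7 to 8 fell, and 1666 to 1764 of all tested genes rose and 1635 to 1711 fell. With the replicate block, 3 members rose and 8 fell past both criteria, and the block changed no call of a member. Of the members called, 2 that rose and 6 that fell were called in every fit, and Zbtb32 in each of the 14 that tested it. Of the single log2 fold changes of members under an alternative, 515 kept their direction and their side of both criteria, 11 came past them, 6 lost them and 13 changed sign, the last all for Zbtb8os and Zbtb22. The median of the members was -0.78 with library size alone, -0.52 with upper quartile scaling and -0.41 under the filter of 10 counts. Per length of the longest transcript, PBS levels were 17.9 for Zbtb7b, 13.3 for Zbtb22, 12.9 for Zbtb7a, 12.2 for Bcl6, 10.8 for Zbtb38 and 8.87 for Zbtb17, which moved Bcl6 and Zbtb38 above Zbtb17. The depth limits Zbtb32 and the 3 members not tested.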
